A study of Mus musculus with 6 samples.

Results

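Necroptosis and death-receptor signalling were followed through 10 genes, Ripk1, Ripk3, Mlkl, Casp8, Cflar, Birc2, Birc3, Xiap, Fas and Traf1, chosen by gene symbol among the 55736 genes of the deposited expression table. Each symbol had a row in the table, and all 10 passed the filter on low values, as did 12440 genes in all. Gene expression had been measured by RNA sequencing in macrophages grown from the bone marrow of wild-type mice. There were 3 libraries of cells given LPS, the bacterial lipopolysaccharide sensed by Toll-like receptor 4, at 200 ng/ml for 24 h, and 3 control libraries at 24 h. In the titles of the treated samples a further number, 500, stands unexplained, and the labels give neither the strain, the age nor the number of mice. The study asks about CCL7, a chemokine, in macrophage polarization and rheumatoid arthritis, and the comparison here asks how LPS-treated macrophages differ from control macrophages in the transcripts that set the choice between survival, apoptosis and necroptosis.

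Receptors of the tumour necrosis factor (TNF) family, such as TNF receptor 1 and Fas, assemble protein complexes on their cytoplasmic tails. In these complexes the kinase RIPK1 is a scaffold for NF-kB signalling while the ubiquitin ligases cIAP1 and cIAP2 modify it, and it becomes a platform for caspase-8 when they do not. Caspase-8 paired with its inactive relative cFLIP cleaves RIPK1 and RIPK3 and holds necroptosis back. When caspase-8 is blocked, RIPK3 phosphorylates the pseudokinase MLKL, which then breaks the plasma membrane. In macrophages LPS is known to feed this pathway both through TNF and through the adaptor TRIF.

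Values are TPM, transcript abundances scaled per length and to 1000000 per library, as deposited by the authors. Read depth cannot be recovered from TPM, so no counting error or detection limit is given, and in bulk samples fewer cells of a type and less RNA per cell cannot be told apart. Because the total is fixed, genes that take a larger share lower all others. Saa3 and Fth1 held 17.6% ± 0.50 of the total in LPS libraries and 2.02% ± 0.096 in control libraries (SD, n = 3 each). Tested genes as a whole had a median change of −0.44 (log2(TPM + 1) scale). With Saa3 and Fth1 left out and the rest rescaled, the median was −0.22 on the same scale. Calls were made with limma on that scale at a Benjamini-Hochberg adjusted p under 0.05 over all tested genes, and each direction was also read after median-of-ratios scaling, which sets the median change near 0. All 10 macrophage markers were present, and their summed level ran from 35846 to 38358.5 TPM in LPS and from 27378 to 28952 TPM in control libraries. Of 10 T and NK cell markers 6 were listed at 0 in every library, Cd3d, Cd3e, Cd3g, Cd8a, Ncr1 and Nkg7, and the sum ran from 0.57 to 1.57 TPM in LPS and from 0.91 to 4.17 TPM in control libraries. Neutrophil markers summed to 76.9 to 94.0 TPM in LPS and 4.01 to 6.48 TPM in control libraries. S100a8 made up most of these sums, with a mean of 79.9 TPM in LPS and 4.33 TPM in control libraries. Ly6g and Retnlg were listed at 0, and 7 of 10 neutrophil markers were under 1 TPM in every library. B cell markers summed to 1.25 to 2.05 TPM in LPS and 57.6 to 63.1 TPM in control libraries. Ighm made up nearly all of the control sums, with a mean of 60.1 TPM there and 0.35 TPM in LPS libraries. Of the 8 B cell markers 5 were under 1 TPM in every library. Of 13 mitochondrially encoded mRNAs 12 were called lower (median −1.38), and their sum ran from 20859 to 22140 TPM in LPS and from 47385 to 51815 TPM in control libraries. The part of these shifts in the results below was not tested.

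LPS-treated macrophages carried more transcript of the death receptor Fas, the adaptor Traf1, the brakes Cflar and Birc3 and the executioner Mlkl. The kinase Ripk1 had lower values, which may hold reads of an overlapping gene, as given below. limma called 8 of the 10 genes, 5 higher and 3 lower in LPS libraries, where 76.1% of all tested genes were called, 16.3% higher and 59.8% lower. The median change of the 10 was 0.58 on the log2 scale, beside −0.44 for all tested genes. The 5 higher calls had adjusted p-values between 6.46e-08 and 4.25e-06. After median-of-ratios scaling 8 were again called, 7 higher and 1 lower, where 67.1% of all tested genes were called, 33.8% higher and 33.3% lower. The 5 rises and the fall of Ripk1 were called on both scales, and the calls of the remaining genes depended on the scale. Libraries of the groups did not overlap for 9 of the 10 genes, 5 with LPS above and 4 with LPS below, against 78.6% of all tested genes, 17.3% above and 61.4% below.

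**Figure D1:**
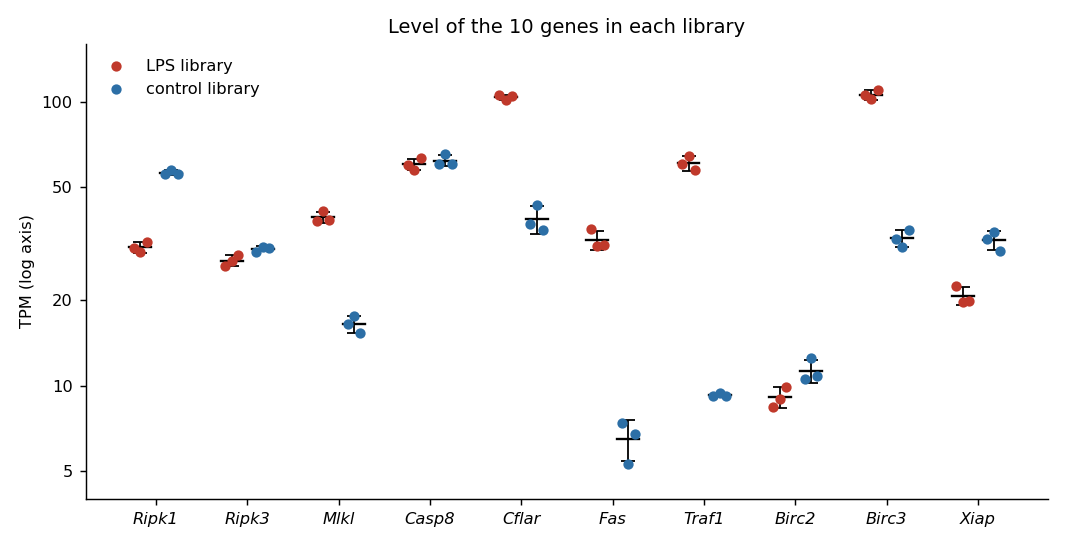
TPM (log axis) of the 10 genes in each of 3 LPS and 3 control libraries; points are libraries, horizontal bars are means and whiskers are the SD (n = 3). Fas, Traf1, Cflar, Birc3 and Mlkl lie higher in LPS libraries and Ripk1 lower, while only for Casp8 do the points of the groups overlap.

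Fas encodes the receptor for Fas ligand (ENSMUSG00000024778; GRCm38 chr19:34290666-34327772, plus strand). It had 35.6, 31.2 and 31.3 TPM in the LPS libraries and 7.41, 5.33 and 6.76 TPM in the control libraries. Every LPS library lay above every control library by a wide margin. The means, 32.7 ± 2.52 and 6.50 ± 1.06 TPM (SD, n = 3 each), differed 5.03-fold, and the change was 2.18 (SE 0.12, limma adjusted p = 2.82e-06). Traf1 encodes an adaptor of TNF receptors that binds TRAF2 and the cIAPs (ENSMUSG00000026875; chr2:34941750-34961772, minus strand). It had 60.25, 64.7 and 57.4 TPM in the LPS libraries and 9.21, 9.47 and 9.24 TPM in the control libraries. The control values were nearly identical, and the LPS values stood far above them. The means were 60.8 ± 3.68 and 9.31 ± 0.14 TPM, a 6.53-fold difference (log2 change 2.58, SE 0.06, limma adjusted p = 6.46e-08). Traf1 had the largest rise of the 10 genes and ranked 229 of 12440 tested genes, and Fas ranked 310. These were the least abundant genes of the set in control libraries.

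The promoters of Fas and Traf1, the genes with the largest rises of the 10, are shown. Each is given as the 250 bases upstream of the RefSeq start (GRCm38.p6), 5′ to 3′ on the strand of the gene. Values per gene do not show which start was used. Capitals mark matches to a GAS element, the site of STAT factors, searched as TTCNNNGAA, which reads the same on both strands.
Fas (chr19:34290409-34290658, plus strand): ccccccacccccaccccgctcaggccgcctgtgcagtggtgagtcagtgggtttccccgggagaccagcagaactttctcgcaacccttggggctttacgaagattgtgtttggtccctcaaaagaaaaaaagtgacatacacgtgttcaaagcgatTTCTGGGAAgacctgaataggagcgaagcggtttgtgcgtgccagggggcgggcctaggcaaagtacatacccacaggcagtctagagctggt
Traf1 (chr2:34961773-34962022, minus strand): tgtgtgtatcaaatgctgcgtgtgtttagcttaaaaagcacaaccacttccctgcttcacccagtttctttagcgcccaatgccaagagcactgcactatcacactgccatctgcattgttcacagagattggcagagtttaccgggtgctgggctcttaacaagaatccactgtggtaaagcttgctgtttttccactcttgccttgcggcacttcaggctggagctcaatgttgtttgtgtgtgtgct
The Fas window held 1 match, whose first base lies 93 bases before the start. The Traf1 window held none of the 3 motifs searched, which were GAS, the interferon-stimulated response element (ISRE, searched as GAAANNGAAA on both strands) and the NF-kB consensus. Windows of 250 bases before to 50 after the start held a GAS match in 8.3%, an ISRE match in 3.44% and an NF-kB match in 8.46% of 32851 RefSeq promoters. All 10 genes matched a window by symbol, 14 windows in all. NF-kB letters were found in 1 window of Xiap, ISRE letters in Cflar and Ripk1, and GAS letters in Fas and Ripk1. A match is a run of letters and not a measured site.

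The RIP kinases and their executioner parted. Ripk1 (ENSMUSG00000021408; chr13:34002363-34037147, plus strand) had 30.6, 29.6 and 32.2 TPM in the LPS libraries and 55.9, 57.6 and 55.6 TPM in the control libraries. The LPS values lay well below all control values. The means were 30.8 ± 1.34 and 56.4 ± 1.09 TPM (SD, n = 3 each), the control mean 1.83 times the LPS mean (log2 change −0.85, SE 0.05, limma adjusted p = 5.96e-06). After median-of-ratios scaling the fall was −0.36 (SE 0.04, adjusted p = 0.000257). Ripk1 overlaps Serpinb6a, a gene on the opposite strand, over 432 bases, of which 241 are exonic in both genes and make up 2.89% of the annotated exonic bases of Ripk1. Serpinb6a, a protease inhibitor gene named here for this overlap, averaged 95.2 ± 2.10 TPM in LPS and 731 ± 4.99 TPM in control libraries (limma adjusted p = 7.99e-09). No source used here says whether strand was used in counting, so reads of both genes cannot be told apart there. Serpinb6a was the more abundant gene, most of all in control libraries, so the share of bases does not bound its share of Ripk1 reads. The part of such reads in the Ripk1 values and in their fall was not tested. A processed pseudogene on the same strand inside Ripk1, Gm17084, averaged 5.60 TPM in LPS and 10.6 TPM in control libraries.

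Ripk3, the kinase that phosphorylates MLKL (ENSMUSG00000022221; chr14:55784995-55788865, minus strand), had 26.5, 27.5 and 28.9 TPM in the LPS libraries and 29.7, 30.95 and 30.65 TPM in the control libraries. The groups lay close together without overlap. The means were 27.6 ± 1.23 and 30.4 ± 0.66 TPM, and the change did not pass the test (log2 change −0.14, 95% interval −0.27 to 0.001, limma adjusted p = 0.0658). The sign of the Ripk3 change turned with the scale, to 0.35 by the median of ratios (limma adjusted p = 0.00064), to 0.29 by quantiles (0.00208) and to 0.11 when Saa3 and Fth1 were omitted (0.126). On TPM as deposited Ripk3 was called lower without LPS library 3 (limma adjusted p = 0.0448). Mlkl, the membrane-breaking pseudokinase (ENSMUSG00000012519; chr8:111311797-111338177, minus strand), had 38.2, 41.3 and 38.4 TPM in the LPS libraries and 16.5, 17.7 and 15.3 TPM in the control libraries. All LPS libraries were above all control libraries. Its means of 39.3 ± 1.74 and 16.5 ± 1.16 TPM differed 2.38-fold (log2 change 1.20, SE 0.07, limma adjusted p = 4.25e-06).

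The second annotated start of Ripk1 is shown because its upstream window held the most motif matches of the 14. Capitals mark 2 GAS matches, the first 108 and the second 11 bases before the start, and the beginning of an ISRE match that starts 5 bases before it, overlaps the second GAS match by 3 bases and runs past the start.
Ripk1, second start (GRCm38.p6 chr13:34002624-34002873, plus strand): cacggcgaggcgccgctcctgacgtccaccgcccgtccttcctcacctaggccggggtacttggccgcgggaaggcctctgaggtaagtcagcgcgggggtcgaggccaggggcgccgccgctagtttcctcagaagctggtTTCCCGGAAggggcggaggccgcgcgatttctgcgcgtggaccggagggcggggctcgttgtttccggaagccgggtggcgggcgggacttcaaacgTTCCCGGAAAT

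Casp8 encodes caspase-8, the protease that starts death-receptor apoptosis and restrains necroptosis (ENSMUSG00000026029; chr1:58795374-58847503, plus strand). It had 59.8, 57.7 and 63.3 TPM in the LPS libraries and 60.6, 65.3 and 60.4 TPM in the control libraries. The groups overlapped on TPM as deposited. The means were 60.3 ± 2.83 and 62.1 ± 2.80 TPM (SD, n = 3 each; log2 change −0.04, 95% interval −0.18 to 0.095, limma adjusted p = 0.528). Casp8 was called higher on the other 3 scales, with a log2 change of 0.45 by the median of ratios (limma adjusted p = 9.66e-05), 0.24 by quantiles (0.00533) and 0.20 when Saa3 and Fth1 were omitted (0.0129). Cflar, which encodes cFLIP (ENSMUSG00000026031; chr1:58711508-58758884, plus strand), had 105.6, 101.7 and 104.6 TPM in the LPS libraries and 37.1, 43.4 and 35.3 TPM in the control libraries. Control library 2 was the highest of the controls, still far below the LPS libraries. The means, 104 ± 1.99 and 38.6 ± 4.24 TPM, differed 2.69-fold (log2 change 1.41, SE 0.08, limma adjusted p = 3.15e-06). Casp8 and Cflar lie on the same strand of chromosome 1, with 36489 bases and 1 annotated gene between them. The values are per gene, so the long and short forms of cFLIP are not resolved.

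The inhibitor of apoptosis genes split by member. Birc3, which encodes cIAP2 (ENSMUSG00000032000; chr9:7848699-7873186, minus strand), had 105.5, 102.1 and 110.1 TPM in the LPS libraries and 33.0, 30.9 and 35.5 TPM in the control libraries. The LPS libraries held the highest level of any of the 10 genes together with Cflar. The means were 105.9 ± 4.0 and 33.2 ± 2.31 TPM (SD, n = 3 each), 3.19-fold apart (log2 change 1.65, SE 0.06, limma adjusted p = 5.04e-07). Birc2, which encodes cIAP1 (ENSMUSG00000057367; chr9:7818227-7837064, minus strand), had 8.46, 8.96 and 9.94 TPM in the LPS libraries and 10.55, 12.54 and 10.85 TPM in the control libraries. The groups came close without overlap. Its means were 9.12 ± 0.75 and 11.3 ± 1.07 TPM, and the lower call on TPM as deposited (log2 change −0.28, SE 0.10, limma adjusted p = 0.0312) was lost or turned on the other 3 scales. It had a change of 0.18 by the median of ratios (limma adjusted p = 0.106), 0.28 by quantiles (0.0209) and −0.055 when Saa3 and Fth1 were omitted (0.633). The call was also lost without LPS library 1 (adjusted p = 0.101), without LPS library 2 (0.0779) and without control library 2 (0.0858), and with no filter on low values (0.0614).

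Xiap encodes the X-linked inhibitor that binds active caspases (ENSMUSG00000025860; chrX:42059679-42109656, plus strand). It had 22.55, 19.8 and 19.9 TPM in the LPS libraries and 32.9, 34.9 and 30.0 TPM in the control libraries. The groups did not overlap. The means were 20.8 ± 1.55 and 32.6 ± 2.47 TPM (log2 change −0.63, SE 0.08, limma adjusted p = 0.000287). Neither the median of ratios (log2 change −0.14, limma adjusted p = 0.148) nor quantile normalization (−0.19, 0.0641) kept this call. Birc2 and Birc3 are related genes that lie 11634 bases apart on the same strand of chromosome 9 with no annotated gene between them. Of the 31-base words in their annotated transcripts, 49 were shared, 1.62% of those of Birc2 and 1.52% of those of Birc3, so most of their sequence tells them apart.

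The upstream windows of this neighbouring pair are shown for their difference in base composition. Neither held a match to the 3 motifs, so no letters are in capitals.
Birc3 (GRCm38.p6 chr9:7873171-7873420, minus strand): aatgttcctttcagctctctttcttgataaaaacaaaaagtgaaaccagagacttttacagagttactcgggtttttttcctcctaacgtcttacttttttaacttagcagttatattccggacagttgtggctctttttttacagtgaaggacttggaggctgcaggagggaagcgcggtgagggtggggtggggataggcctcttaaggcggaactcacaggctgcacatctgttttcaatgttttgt
Birc2, first start (GRCm38.p6 chr9:7837058-7837307, minus strand): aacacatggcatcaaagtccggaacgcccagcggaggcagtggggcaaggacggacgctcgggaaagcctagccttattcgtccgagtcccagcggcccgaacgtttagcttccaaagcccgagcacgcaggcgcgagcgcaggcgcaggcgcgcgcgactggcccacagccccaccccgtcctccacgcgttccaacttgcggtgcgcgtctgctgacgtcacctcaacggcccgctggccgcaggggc
The Birc3 window had 43.6% G and C with 6 CG steps, and the Birc2 window shown had 68.4% G and C with 31, while its other window had 61.2% G and C. Over all 14 windows G and C ran from 39.2% in a window of Xiap to 69.6% in one of Ripk1, and no test was made.

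**Figure D2:**
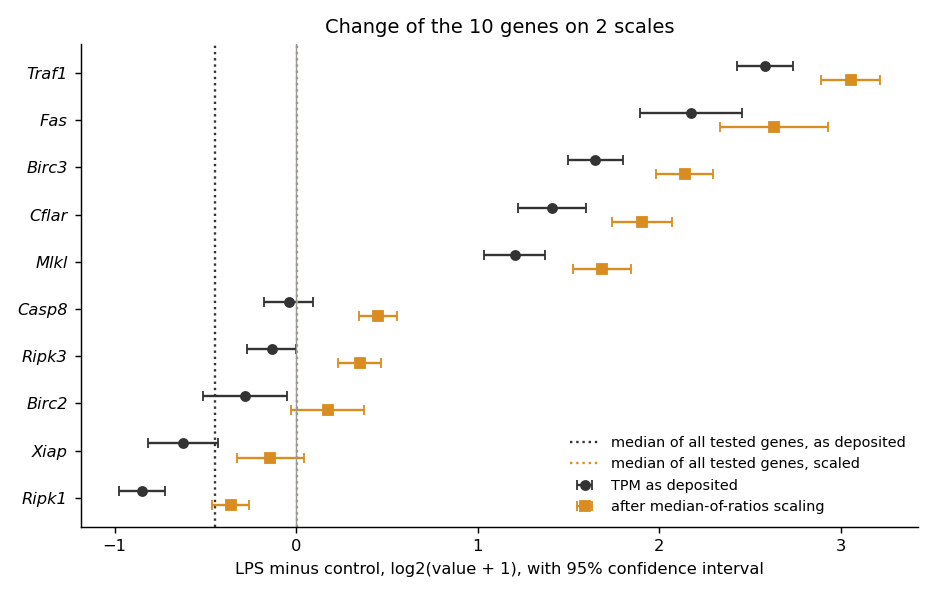
Change of each gene, LPS minus control, on the log2(value + 1) scale (x axis) with its 95% confidence interval from limma, for TPM as deposited (circles) and after median-of-ratios scaling (squares); dotted lines are the medians of all tested genes. Traf1, Fas, Birc3, Cflar and Mlkl lie above 0 and Ripk1 below 0 on both scales, while Casp8, Ripk3 and Birc2 change sign and the interval of Xiap holds 0 after scaling.

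The order of the levels within a library differed between the groups. In LPS libraries Birc3 and Cflar came first with overlapping values, followed by Traf1 and Casp8, which also overlapped, then Mlkl, then Fas and Ripk1, which overlapped, then Ripk3, Xiap and Birc2. In control libraries Casp8 and Ripk1 came first and did not overlap each other, followed by Cflar, Birc3, Xiap and Ripk3, whose neighbours in that order overlapped. Mlkl, Birc2, Traf1 and Fas followed without overlap. The levels ran from 9.12 TPM for Birc2 to 105.9 TPM for Birc3 in LPS means, and from 6.50 TPM for Fas to 62.1 TPM for Casp8 in control means. The 10 genes summed to 491 ± 5.94 TPM in LPS and 297 ± 9.87 TPM in control libraries (SD, n = 3 each).

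Ratios of a pair of genes within a library do not change with the library's scaling, and 8 were computed. The ratio of Cflar to Casp8, the brake to its partner protease, was 1.77, 1.76 and 1.65 in the LPS libraries and 0.613, 0.665 and 0.585 in the control libraries. Cflar was thus the more abundant of the pair in LPS libraries and the less abundant in control libraries. Birc3 over Birc2 was 12.5, 11.4 and 11.1 in the LPS libraries and 3.13, 2.47 and 3.28 in the control libraries. Birc3 over Xiap averaged 5.12 ± 0.43 in LPS and 1.02 ± 0.15 in control libraries. The gain of Birc3 over both relatives did not rest on the scale.

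Mlkl over Ripk3, the executioner over its kinase, was 1.44, 1.5 and 1.33 in the LPS libraries and 0.556, 0.571 and 0.50 in the control libraries. Ripk3 over Ripk1 was 0.865, 0.930 and 0.897 in the LPS libraries and 0.531, 0.537 and 0.552 in the control libraries, and carries the doubt on Ripk1 given above. Ripk3 over Casp8 overlapped between the groups, with 0.442, 0.477 and 0.457 in the LPS libraries and 0.490, 0.474 and 0.508 in the control libraries. Traf1 over Traf2, its close partner, averaged 2.91 ± 0.30 in LPS and 0.642 ± 0.013 in control libraries. Fas over Tnfrsf1a, the gene of TNF receptor 1, averaged 0.235 ± 0.018 in LPS and 0.0392 ± 0.0075 in control libraries, so Tnfrsf1a was the more abundant of these receptors in both. The exact two-sided permutation test gave p = 0.1 for 7 of the 8 ratios, the smallest that 3 against 3 libraries allow, and p = 0.2 for Ripk3 over Casp8. Adjusted over the 8 ratios these became 0.114 and 0.2, so none passed 0.05.

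**Figure D3:**
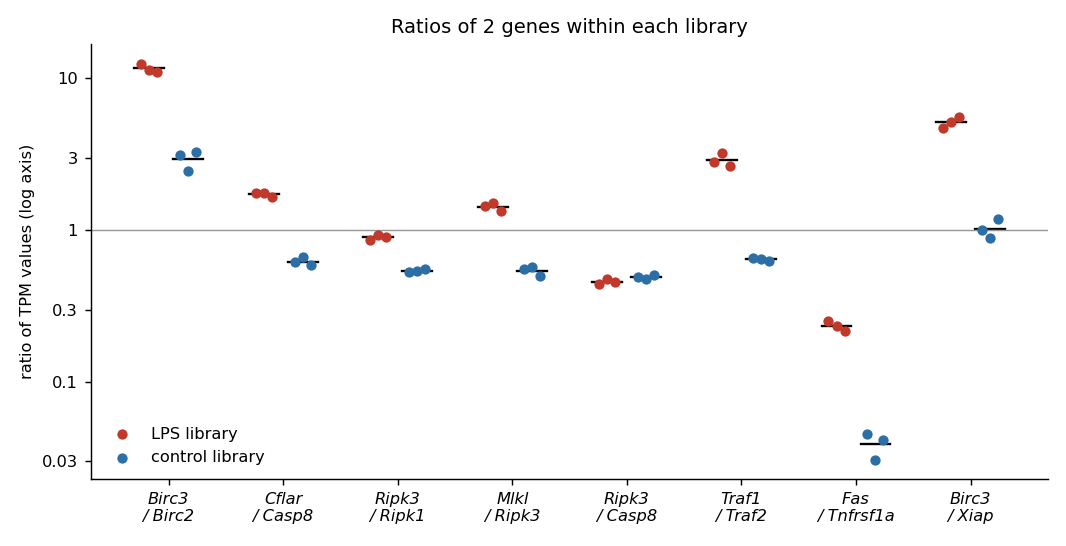
Ratio of TPM values of 2 genes within each library (log axis), for 3 LPS and 3 control libraries; points are libraries, bars are means, and the line marks a ratio of 1. Cflar over Casp8 and Mlkl over Ripk3 lie above 1 in LPS and below 1 in control libraries, and Ripk3 over Casp8 overlaps between the groups.

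Other genes of the pathway were read through 5 lists, with up to 3 called rises and 2 called falls of each named by size. Their counts stand beside 16.3% of all tested genes called higher and 59.8% lower on TPM as deposited, and 33.8% higher and 33.3% lower after median-of-ratios scaling. Among 20 genes of the TNF receptor complex and its downstream kinases, 6 rose and 10 fell (median −0.18). On TPM as deposited these calls took in 16.3% and 59.8% of all tested genes. After median-of-ratios scaling 13 rose and 2 fell, where all tested genes gave 33.8% and 33.3%, so the direction of much of this list depended on the scale. The kinase gene Ikbke rose to 273 ± 14.1 TPM in LPS libraries, against 59.6 ± 3.03 TPM in control libraries. TNF receptor 2, Tnfrsf1b, averaged 423 ± 17.5 and 176 ± 4.52 TPM in LPS and control libraries, and Mapkapk2, a kinase that phosphorylates RIPK1, averaged 246.5 ± 6.0 and 151 ± 1.34 TPM. The adaptor gene Fadd, which links death receptors to caspase-8, averaged 5.45 ± 0.35 TPM in LPS and 9.13 ± 0.075 TPM in control libraries, and Tab1, a partner of the kinase TAK1, 12.8 ± 1.64 and 22.5 ± 1.45 TPM. Tnfrsf1a was lower on TPM as deposited, with 139 ± 5.64 TPM in LPS and 166.5 ± 5.61 TPM in control libraries, and called higher after median-of-ratios scaling. Traf2 was higher, with 21 ± 0.86 and 14.5 ± 0.38 TPM. The limma adjusted p-values of these 7 genes lay between 8.65e-08 and 0.00221.

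Of 10 genes listed as brakes on TNF receptor signalling, 5 rose and 4 fell (median 0.22), where 16.3% and 59.8% of all tested genes did. Chmp2a and Chmp4b, which act in membrane repair rather than at the receptor, are both among the 5 rises. After median-of-ratios scaling 7 rose and 2 fell, where all tested genes gave 33.8% and 33.3%. Tnfaip3, which encodes the ubiquitin-editing enzyme A20, averaged 104.6 ± 4.70 TPM in LPS and 13.2 ± 0.87 TPM in control libraries. Its binding partner Tnip1 averaged 220.5 ± 13.3 and 64.8 ± 2.97 TPM, and Chmp4b, a subunit of the ESCRT machinery that repairs membranes, 299.6 ± 8.71 and 189.7 ± 0.85 TPM. The deubiquitinase gene Otulin averaged 28.8 ± 0.34 TPM in LPS and 57.8 ± 3.50 TPM in control libraries, and Spata2, which brings CYLD to the receptor complex, 10.7 ± 0.60 and 18.5 ± 1.58 TPM. Both were called lower on both scales. The limma adjusted p-values of these 5 genes lay between 4.72e-08 and 0.000159.

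Of 10 death ligands and other death receptors 6 passed the filter on low values. Tnfsf10 passed through its LPS libraries alone and is left out of the count. Of the other 5 genes, 1 rose and 3 fell (median −0.62), where 16.3% and 59.8% of all tested genes did. After median-of-ratios scaling 2 rose and 2 fell, where all tested genes gave 33.8% and 33.3%. The Tnf transcript had 184.6, 201.3 and 199.4 TPM in the LPS libraries and 22.4, 24.6 and 24.7 TPM in the control libraries. Tnfsf10, which encodes the ligand TRAIL, stayed low at 1.56, 1.52 and 1.82 TPM in the LPS libraries and 0.49, 0.30 and 0.45 TPM in the control libraries. Tnfsf12, the gene of TWEAK, averaged 17.4 ± 2.98 TPM in LPS and 58.6 ± 3.95 TPM in control libraries, and the death-domain receptor gene Tnfrsf21 11.3 ± 1.02 and 22 ± 3.24 TPM. The limma adjusted p-values of Tnf, Tnfsf12 and Tnfrsf21 lay between 3.25e-08 and 0.000275. The 4 genes under the filter were Fasl, Lta, Tnfrsf10b and Tnfrsf25, named after their values were seen. Fasl, the ligand of Fas, was listed at 0 in all 3 LPS libraries and at 0, 0 and 0.03 TPM in the control libraries.

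A further list of 12 genes was drawn up for necroptosis started outside the TNF receptor. It is not made of inducers alone, since it holds Adar, which restrains ZBP1, and the HSP90 genes with their partner Cdc37. Called higher were 5 of the 12, Adar among them, and 4 were called lower (median 0.13). Of all tested genes 16.3% and 59.8% were so called. After median-of-ratios scaling 10 rose and 1 fell, where all tested genes gave 33.8% and 33.3%. Zbp1, a nucleic acid sensor that binds RIPK3, had the largest rise of any gene of the 5 lists, with 381.5, 404.6 and 406.6 TPM in the LPS libraries and 10.1, 12.2 and 8.34 TPM in the control libraries (log2 change 5.17, SE 0.12, limma adjusted p = 4.49e-08). Eif2ak2, the kinase PKR, averaged 44.0 ± 0.21 TPM in LPS and 22.2 ± 3.47 TPM in control libraries. Adar, an RNA editing enzyme that restrains ZBP1, averaged 72.6 ± 4.56 and 38.5 ± 2.76 TPM. Tlr4, the LPS receptor, averaged 18.1 ± 1.66 TPM in LPS and 52.7 ± 3.85 TPM in control libraries and was called lower on both scales. The HSP90 partner gene Cdc37 averaged 175 ± 8.25 and 232 ± 5.87 TPM, a lower call lost after median-of-ratios scaling. The limma adjusted p-values of these 5 genes lay between 4.49e-08 and 0.000201.

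Of 18 caspases and their mitochondrial activators and inhibitors 3 rose and 13 fell (median −0.56), where 16.3% and 59.8% of all tested genes did and their median was −0.44. After median-of-ratios scaling 5 rose and 7 fell, where all tested genes gave 33.8% and 33.3%. Birc5, the mitotic inhibitor of apoptosis gene survivin, averaged 1.09 ± 0.57 TPM in LPS and 190 ± 10.9 TPM in control libraries, and Casp2 8.52 ± 0.64 and 30.8 ± 2.74 TPM. Cytochrome c, Cycs, rose to 36.1 ± 2.42 TPM in LPS libraries, against 15.4 ± 1.95 TPM in control libraries. Naip2, a sensor of bacterial secretion proteins with repeats like those of the IAPs and with close relatives that may share its reads, averaged 32.7 ± 1.32 and 23.7 ± 0.74 TPM, and the mitochondrial nuclease gene Endog 8.02 ± 0.62 and 5.53 ± 0.69 TPM. The limma adjusted p-values of Birc5, Casp2, Cycs, Naip2 and Endog lay between 1.67e-07 and 0.00578.

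**Figure D4:**
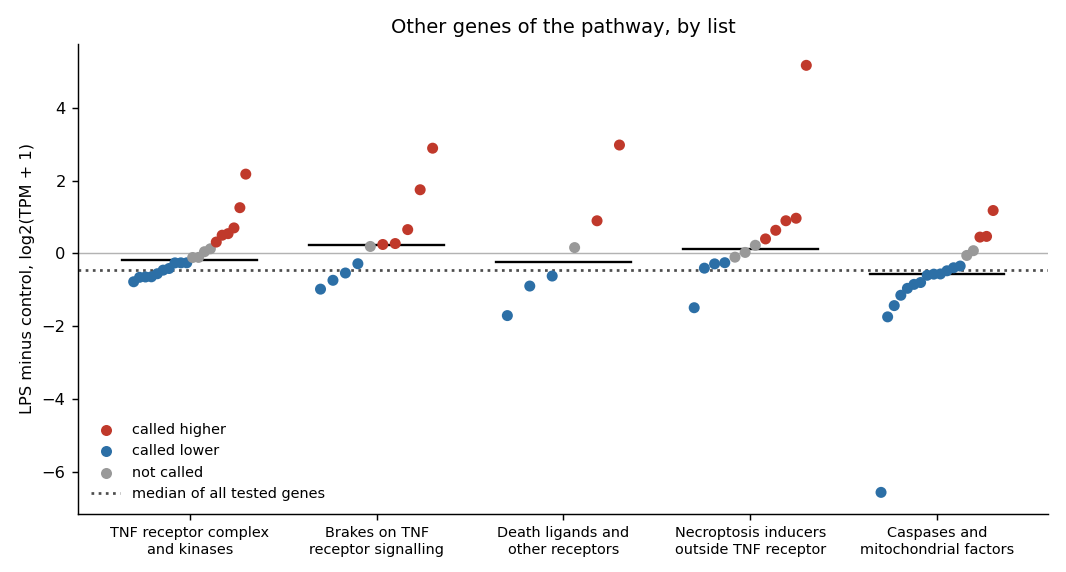
Change of each tested gene of 5 pathway lists, LPS minus control on the log2(TPM + 1) scale (y axis); points are genes coloured by their limma call, bars are list medians and the dotted line is the median of all tested genes at −0.44. Zbp1 lies highest at 5.17 and Birc5 lowest at −6.56, and the caspase list holds 13 lower calls. Many of the smaller falls lose their call or turn after median-of-ratios scaling. The death ligand list is drawn with Tnfsf10, which the count in the text leaves out. Its bar therefore lies at −0.23, where the text gives −0.62.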

How the data were processed

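Transcript levels of mouse macrophages cultured from bone marrow were read from 1 table of 55736 genes with 3 LPS and 3 control libraries. The values are TPM computed by the authors, deposited with 2 decimals, and all 6 libraries sum to 1000000 within 1 TPM. Bowtie 0.12.2, mm8 and mm9 appear in the submitters' processing notes without a role. The quantifier, annotation and strand setting were not given in the sources used. Groups and replicate numbers came from the labels, which do not say that the libraries are separate cultures or animals, so the p-values cover the spread among these libraries alone, and that spread may be technical.

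A gene was tested when 3 or more libraries reached 1 TPM. limma 3.58.1 (R 4.3.3; lmFit, eBayes with trend) compared LPS with control on log2(TPM + 1), two-sided, with p-values adjusted by Benjamini-Hochberg over the 12440 genes. This scale understates changes of low genes. The procedure was tested on simulated data that held no shift of all genes together, so that test does not bear on the choice of scale. Single ratios and sums were compared by exact permutation. Median-of-ratios scaling divided LPS libraries by 0.833 to 0.868 and control libraries by 1.18 to 1.22, so it raises every change. Coordinates are from GENCODE M21 (GRCm38), by gene identifier, and promoter sequences from RefSeq (GRCm38.p6), by symbol. The genes, lists and ratios were chosen with earlier results of these data known. Named genes were all 10 members, the genes of the ratios, Saa3 and Fth1, and in each list up to 3 called rises and 2 called falls by size.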

Additional observations from a re-analysis of the deposited data

How the results depend on the processing

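The rises of Fas, Traf1, Cflar, Birc3 and Mlkl and the fall of Ripk1 were called under all 14 alternatives. None of the 14 changes how reads are assigned, so they do not bear on reads Ripk1 may share with Serpinb6a or Gm17084. TPM keeps no depth, and the labels do not say whether libraries are biological replicates. Of all tested genes 2028 were called higher and 7441 lower, against 4206 and 4146 after median-of-ratios scaling and 4029 and 4257 under quantile normalization. Of the 10 members 5 were higher and 3 lower, against 8 higher and 1 lower under quantile normalization and 1 lower after median-of-ratios scaling. Ripk3 turned to 0.35, 0.292 and 0.107 after median-of-ratios scaling, under quantile normalization and with Saa3 and Fth1 left out, and was called lower without LPS library 3 (adjusted p = 0.0448). In the same order Casp8 turned to 0.453, 0.24 and 0.205. Birc2 turned to 0.175 and 0.281 under the first and second of these.

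In the TNF receptor complex list 13 were higher and 2 lower after median-of-ratios scaling, 2 were lower under quantile normalization and 6 lower with Saa3 and Fth1 left out. Of the brakes 2 and 1 were lower under the first and second of these scalings. Of the list of necroptosis inducers, which also holds Adar, 10, 9 and 8 were higher and 1, 2 and 2 lower under the same settings in order. Of the caspase list 5 were higher under each, and 7 and 8 lower under the first and second. Median-of-ratios scaling raises every change by its construction, and the cause of the other shifts was not tested. Of the death ligands 1 was higher with a minimum of 5 TPM, and 1 to 3 when a library was left out. Tnfsf10 fails the filter with a minimum of 5 TPM or without any of the LPS libraries. It was counted among 2 higher calls here, and 1 was higher with it left out, a choice made after seeing the data. All 8 ratios kept their direction with 1 TPM added and with any library left out.

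With the replicate number as a block, 5 members were called higher and 2 lower, Birc2 being lost (adjusted p = 0.051). Deviations of same-numbered libraries correlated at 0.0744, −0.151 and 0.0765. These values show no pairing by number, but with 3 libraries per group they cannot exclude one, and the labels state none. Only LPS library 3 correlated best with the control library of its own number.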
